A study of Mus musculus with 8 samples.

Results

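The genes described here carry fatty acids from the blood into the heart and burn them there. The list of 32 genes was chosen by role: control of lipoprotein lipase, fatty acid uptake, mitochondrial and peroxisomal beta-oxidation, and targets of the nuclear receptor PPAR-alpha. Of the 32 genes, 29 were measured, among 22180 genes tested in all. Cpt1b, the muscle form of carnitine palmitoyltransferase, lies on a probe set annotated to several genes and was not used. Ucp2 and Acsl1 were not analysed here.

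The hearts came from male mice 8 to 10 weeks old, labelled C57BL6JRj and called C57BL6/J wild-type in the growth protocol, fed a standard chow without restriction. One group of 5 samples received digoxin, a cardiac glycoside that inhibits the Na/K-ATPase, once at 1 mg/kg into the peritoneum. The other, of 3 samples, received vehicle alone, a solvent of ethanol, propylene glycol, citric acid and sodium phosphate. Both were injected at ZT5, and hearts were collected at ZT9, where ZT0 is lights-on of a 12h/12h cycle. RNA of each heart was hybridised to 1 Affymetrix Mouse Gene 2.0 ST array. Of 4 vehicle samples in the study's own account, 3 are analysed here. The labels do not say that each array is a separate mouse. It is taken as one. The p values then set the group difference against the spread of samples within groups, which limma moderates using all genes.

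The heart draws most of its energy from fatty acids. Lipoprotein lipase, held on the capillary wall, frees them from circulating triglyceride, and carriers take them into the cardiomyocyte, where they are activated to acyl-CoA. Carnitine palmitoyltransferases pass the acyl groups into the mitochondrion, and a cycle of dehydrogenase, hydratase and thiolase steps shortens the chain. PPAR-alpha, which binds fatty acids, is known to switch on many of these genes in heart and liver.

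Values are on a log2 scale and centred probe set by probe set, so 0 is the centre of that gene and not an absence of RNA. They compare arrays, not genes, and presence of the heart's defining markers cannot be checked on them. Some arrays stood apart. Vehicle replicate 3 had an interquartile range of 0.216 over all probe sets, against 0.0792 to 0.115 on the other arrays. The mean over 10 atrial markers lay between -0.32 and 1.4 in digoxin hearts and between 0.17 and 1.92 in vehicle hearts. All 10 had a negative log2 change, with a median of -0.73, and none passed in limma. On digoxin replicate 4 the mean of 4 measured lymphocyte markers was 1.55, against -0.09 to 0.10 on the other digoxin arrays and -0.01 to 0.05 on the vehicle arrays. The T-cell genes Cd3e and Cd3g were at 2.85 and 3.16 there, and the B-cell genes Cd79a and Ms4a1 both at 0.11. On the same array the mean of 7 measured adipocyte markers was 0.62, against -0.11 to 0.16 on the other digoxin arrays and -0.04 to 0.09 on the vehicle arrays. Cidec, Pck1 and Retn were at 1.35, 1.04 and 0.82 there, and Lep, Lipe, Adipoq and Plin1 between 0.23 and 0.37. Plin1 was at 0.20 on vehicle replicate 3. Fits without these arrays, with array weights and with the atrial mean as a covariate were run beside the reported one.

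Digoxin was compared with vehicle for each gene, and 1 member changed. Gpihbp1, which carries lipoprotein lipase across the capillary endothelium and holds it there, rose in digoxin hearts to 1.38 times the vehicle level (95% interval 1.28 to 1.5). The other 28 members did not pass at an adjusted p of 0.05 in limma, and their adjusted p values lay between 0.34 and 0.965. Of all genes tested, 1.36% passed, 0.947% upward and 0.415% downward. A count of 1 in 29 does not set the list apart from all genes.

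The changes were small. The median log2 change over the 29 members was 0.03, with 20 members above 0 and 9 below, and over all genes tested it was -0.01. The 95% interval lay inside a change of 1.5 times either way for 25 of the 29, the exceptions being Lpl, Gpihbp1, Angptl4 and Ucp3. It lay inside 1.2 times for 16 members and inside 2 times for all 29. Over all genes these intervals lay inside 1.5 times for 96.1% and inside 1.2 times for 59.2%. The median SE of a log2 change was 0.07 for the members and for all genes alike.

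**Figure D1:**
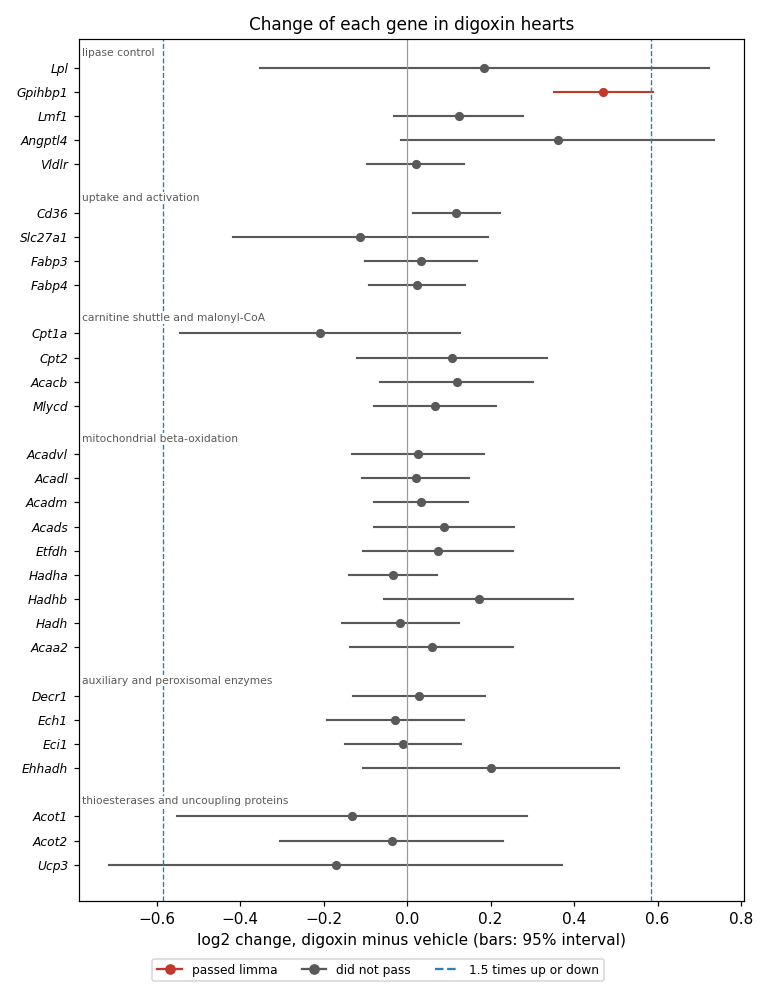
Log2 change of each of the 29 measured genes, digoxin minus vehicle, with its 95% interval from limma (5 digoxin and 3 vehicle arrays), grouped by role from top to bottom. The dashed lines mark 1.5 times up and down. The interval of Gpihbp1, the gene that passed, runs from 0.35 to 0.59, while Lpl, Angptl4 and Ucp3 have the intervals that reach past a dashed line without passing.

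Promoters of 23 measured members are in the RefSeq table (GRCm38.p6), which gives 250 bases before and 50 bases after each annotated start. That of Gpihbp1 is not among them. The letters AGGTCA, the hexamer that PPAR-alpha and other nuclear receptors bind, were searched on both strands, with overlaps counted. They occurred in the promoters of 6 members, Acacb, Acadm, Acadvl, Cd36, Cpt1a and Ucp3. Of all promoters in the table, 16.3% held the hexamer, and of the 26 promoters of members, 6, or 23.1%, did. Its direct repeat with 1 spacer base, AGGTCANAGGTCA, which contains the hexamer, was in none of the 26 and in 0.0396% of all. With 1 free base per hexamer, AGGNCANAGGNCA, it was again in none of the 26 and in 0.381% of all. The glucocorticoid response element, AGAACA and TGTTCT with any 3 bases between, was also in none of them, and in 0.00913% of all promoters. Shown are Cd36 and Lmf1, which had the smallest p values among members with a promoter in the table. Also shown are Cpt1a and Ucp3, each with a paralog in the list and known as PPAR-alpha targets. The promoters of the paralogous members Acot1, Acot2 and Fabp3, which are not shown, do not hold the hexamer. The paralogs shown are thus those with a match, and the promoters shown do not represent all members. Capitals mark the hexamer or its reverse complement TGACCT.
Cd36, chr5:17835847-17836146, strand -: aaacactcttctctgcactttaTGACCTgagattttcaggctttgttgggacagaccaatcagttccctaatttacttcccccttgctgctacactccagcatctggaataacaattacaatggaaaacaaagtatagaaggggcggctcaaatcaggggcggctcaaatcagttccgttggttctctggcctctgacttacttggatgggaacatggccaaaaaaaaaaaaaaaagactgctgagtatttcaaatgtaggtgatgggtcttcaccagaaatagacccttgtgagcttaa
Lmf1, chr17:25578924-25579223, strand +: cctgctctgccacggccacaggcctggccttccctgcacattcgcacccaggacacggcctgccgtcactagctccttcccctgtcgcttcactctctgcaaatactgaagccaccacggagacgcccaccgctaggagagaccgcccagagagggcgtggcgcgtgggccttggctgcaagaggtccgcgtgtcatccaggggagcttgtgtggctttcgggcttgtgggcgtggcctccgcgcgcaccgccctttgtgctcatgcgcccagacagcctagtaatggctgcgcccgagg
Cpt1a, chr19:3323051-3323350, strand +: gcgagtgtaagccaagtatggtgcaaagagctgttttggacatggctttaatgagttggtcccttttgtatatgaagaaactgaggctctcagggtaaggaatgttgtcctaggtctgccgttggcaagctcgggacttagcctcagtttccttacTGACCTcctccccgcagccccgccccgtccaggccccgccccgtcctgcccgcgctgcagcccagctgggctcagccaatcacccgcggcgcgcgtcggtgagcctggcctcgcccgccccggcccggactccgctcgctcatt
Ucp3, chr7:100472741-100473040, strand +: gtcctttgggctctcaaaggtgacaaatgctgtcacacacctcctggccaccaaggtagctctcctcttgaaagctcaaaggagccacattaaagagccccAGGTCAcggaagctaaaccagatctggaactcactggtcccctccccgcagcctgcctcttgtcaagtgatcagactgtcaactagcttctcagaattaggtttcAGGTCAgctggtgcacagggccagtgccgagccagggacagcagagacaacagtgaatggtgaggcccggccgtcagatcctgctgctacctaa
The match begins 228 bases before the start in Cd36 and 94 bases before it in Cpt1a, both on the strand opposite to the one printed. In Ucp3 the hexamer begins 149 and 44 bases before the start, and the Lmf1 promoter holds none. A match describes these letters and is not a binding site.

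Lipase control held the one change. Gpihbp1 had centred log2 values of 0.32, 0.35, 0.39, 0.32 and 0.32 in digoxin hearts, and of -0.14, -0.23 and -0.02 in vehicle hearts. The groups did not overlap, and the digoxin hearts lay close together (SD 0.03, n = 5) beside a wider vehicle group (SD 0.10, n = 3). The log2 change was 0.47 (SE 0.05, adjusted p = 0.0038 in limma). Gpihbp1 was the single member of the 29 whose groups did not overlap, against 8.16% of all genes tested.

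With each array left out in turn, the log2 change of Gpihbp1 lay between 0.42 and 0.52, and its adjusted p in limma between 0.0017 and 0.021. Without both digoxin replicate 4 and vehicle replicate 3 the change was 0.53. Gpihbp1 is made by capillary endothelium, and in a bulk sample more endothelial cells and more Gpihbp1 RNA per cell cannot be told apart. Of 10 endothelial markers, none passed in limma. Their mean on each array lay between -0.10 and -0.004 in digoxin hearts and between -0.16 and 0.05 in vehicle hearts. Relative to this mean, Gpihbp1 was higher by 0.49 in digoxin hearts (0.39 ± 0.05, SD, n = 5) than in vehicle hearts (-0.10 ± 0.21, SD, n = 3). The marker mean itself differed by -0.02, so this value nearly restates the change of Gpihbp1 and was given no test. Single endothelial markers stood on either side of 0, with 4 above it and 6 below. Adjusted p values from limma follow in parentheses. Flt1, a VEGF receptor gene, had a log2 change of 0.32 (0.0993) and Cdh5, of endothelial cadherin, 0.23 (0.133). Egfl7 was at -0.16 (0.197). In these markers the groups did not overlap, and in the others they did. Tie1 was at 0.12 (0.565), Pecam1 at 0.06 (0.827) and Erg at -0.08 (0.707). Kdr and Cldn5 were both at -0.14 (0.617 and 0.586). Emcn was at -0.17 (0.631) and Tek, the angiopoietin receptor gene, at -0.22 (0.35).

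Lpl itself, the gene of the lipase that GPIHBP1 binds, did not pass. Its mean over 2 probe sets was -0.83, 0.06, -0.02, 0.11 and 0.25 in digoxin hearts and -0.03, -0.60 and -0.19 in vehicle hearts. The groups overlapped, with digoxin replicate 1 the lowest of all arrays. The log2 change was 0.18 (SE 0.24, 95% interval -0.35 to 0.72, adjusted p = 0.798 in limma).

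The 2 probe sets of Lpl disagreed. On the first, the values were -0.05, 0.12, 0.02, 0.11 and 0.09 in digoxin hearts and -0.09, -0.03 and 0 in vehicle hearts. On the second they were -1.60, 0, -0.07, 0.11 and 0.41 in digoxin hearts and 0.03, -1.16 and -0.38 in vehicle hearts. The values of -1.60 in digoxin replicate 1 and -1.16 in vehicle replicate 2 were on the second probe set. On the first, digoxin replicate 1 was again the lowest digoxin array, but at -0.05. Vehicle replicate 2, at -0.03, was not the lowest vehicle array there. The log2 change was 0.10 (95% interval -0.02 to 0.22) on the first and 0.27 (95% interval -0.75 to 1.29) on the second, with adjusted p values of 0.502 and 0.852 in limma over all probe sets. What sequence each probe set covers is not given in the sources used here.

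**Figure D2:**
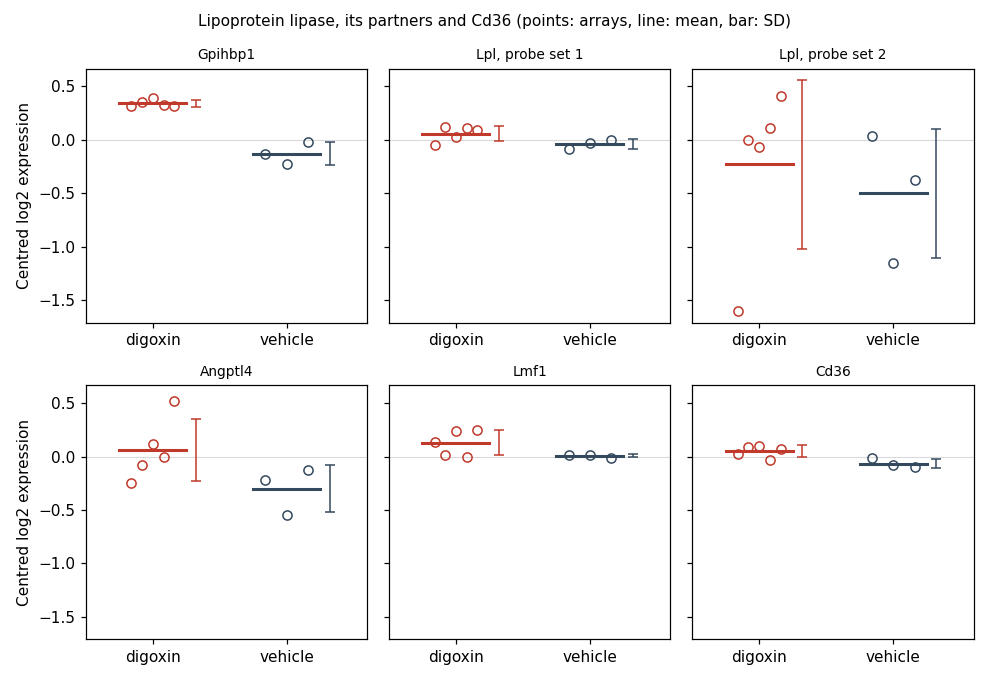
Centred log2 expression of Gpihbp1, the 2 probe sets of Lpl, Angptl4, Lmf1 and Cd36 in digoxin hearts (left in each panel, 5 arrays) and vehicle hearts (right, 3 arrays). Points are arrays, lines are means and bars are SD. Gpihbp1 lies between 0.32 and 0.39 in digoxin hearts, above every vehicle array, and the second Lpl probe set reaches -1.60 on 1 digoxin array and -1.16 on 1 vehicle array.

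Angptl4, a secreted inhibitor of lipoprotein lipase and a known target of both PPAR-alpha and the glucocorticoid receptor, varied widely. It stood at -0.25, -0.08, 0.11, 0.00 and 0.52 in digoxin hearts and at -0.22, -0.55 and -0.13 in vehicle hearts. Digoxin replicate 1 lay below 2 of the vehicle arrays, so the groups overlapped. The log2 change of 0.36 (SE 0.16, 95% interval -0.01 to 0.74) did not pass (adjusted p = 0.427 in limma). Lmf1, an endoplasmic reticulum factor that the lipase needs to mature, was at 0.14, 0.02, 0.24, 0.00 and 0.25 in digoxin hearts and at 0.02, 0.01 and -0.01 in vehicle hearts. Digoxin replicate 4 fell inside the vehicle range and replicate 2 lay level with its top. Its log2 change was 0.12 (95% interval -0.03 to 0.28, adjusted p = 0.516). Vldlr, a receptor for triglyceride-rich lipoproteins, had a log2 change of 0.02 with an interval of -0.10 to 0.14.

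Genes of uptake and intracellular binding did not pass. Cd36, the fatty acid translocase, had values of 0.02, 0.09, 0.10, -0.03 and 0.07 in digoxin hearts and of -0.02, -0.08 and -0.10 in vehicle hearts. Only digoxin replicate 4 fell within the vehicle range. This made a log2 change of 0.12 (SE 0.05), with a 95% interval of 0.01 to 0.22, and an adjusted p of 0.34 in limma. Fabp3, the heart-type fatty acid binding protein gene, had a log2 change of 0.03 (95% interval -0.10 to 0.17), and Fabp4, the binding protein gene of adipocytes and capillary endothelium, one of 0.02 (95% interval -0.09 to 0.14). The 2 probe sets of Fabp3 gave -0.01 and 0.07.

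Slc27a1, which encodes the fatty acid transport protein FATP1, was more variable. It stood at -0.28, 0.02, 0.15, 0.17 and 0.08 in digoxin hearts and at 0.45, -0.07 and 0.04 in vehicle hearts. Vehicle replicate 1 was the highest array and digoxin replicate 1 the lowest. Its log2 change was -0.11 (95% interval -0.42 to 0.19), and it was 0.04 without vehicle replicate 1.

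**Figure D3:**
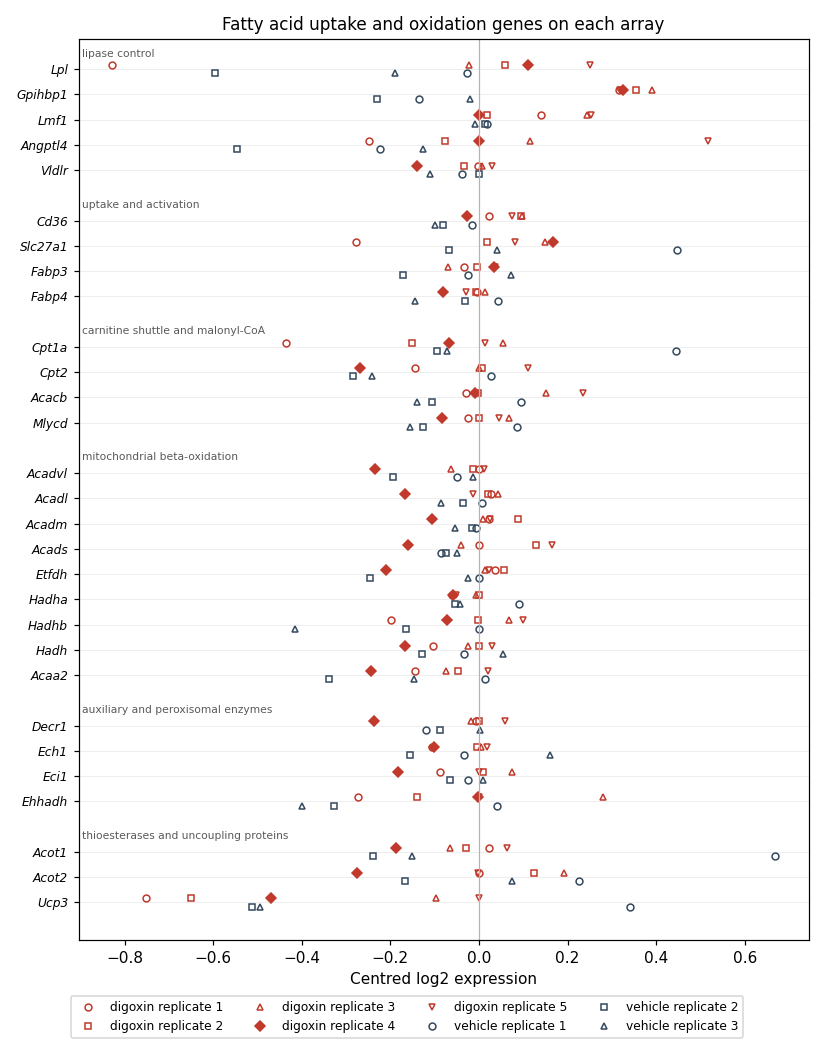
Centred log2 expression of the 29 measured genes on each of 8 arrays, grouped by role. Digoxin arrays are red and drawn above the blue vehicle arrays of the same gene, with replicate 4 filled. Groups overlap in every gene but Gpihbp1, and the filled mark is the lowest digoxin value in 17 of the 29 genes.

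None of the genes of mitochondrial entry passed. Cpt1a encodes the carnitine palmitoyltransferase of the outer membrane in its liver form, and it is a known PPAR-alpha target. It was at -0.44, -0.15, 0.05, -0.07 and 0.01 in digoxin hearts, and at 0.45, -0.10 and -0.07 in vehicle hearts. Without the high value of vehicle replicate 1 the vehicle hearts lay inside the digoxin range. Its log2 change was -0.21 (SE 0.15, 95% interval -0.54 to 0.13, adjusted p = 0.613 in limma), and it was -0.03 without that array.

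Cpt2, the carnitine palmitoyltransferase of the inner membrane, had a log2 change of 0.11 (95% interval -0.12 to 0.33). Acacb encodes the acetyl-CoA carboxylase that makes malonyl-CoA, the inhibitor of the outer transferase, and Mlycd encodes the decarboxylase that removes malonyl-CoA. The log2 change of Acacb was 0.12 (95% interval -0.06 to 0.30) and that of Mlycd 0.07 (95% interval -0.08 to 0.21). Neither passed in limma, with adjusted p values of 0.598 and 0.718.

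No enzyme of the beta-oxidation cycle passed. In the 9 mitochondrial genes of this group, log2 changes lay between -0.03 and 0.17 with a median of 0.03. The acyl-CoA dehydrogenases, which take the first step for chains of different lengths, were at 0.03 for Acadvl, 0.02 for Acadl, 0.03 for Acadm and 0.09 for Acads. Etfdh, which hands their electrons to the respiratory chain, was at 0.07. Hadha and Hadhb encode the subunits of the trifunctional protein, which joins the later steps for long chains. Hadha stood at -0.03 (95% interval -0.14 to 0.07) and Hadhb at 0.17 (95% interval -0.06 to 0.40).

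Hadhb had the highest change of the 9 genes, yet its groups overlapped, with values of -0.20, 0.00, 0.07, -0.07 and 0.10 in digoxin hearts and of 0.00, -0.16 and -0.41 in vehicle hearts. Here the low value was that of vehicle replicate 3, and without it the log2 change was 0.06. Hadh, the dehydrogenase for shorter chains, stood at -0.02 (95% interval -0.16 to 0.12), and the thiolase gene Acaa2 at 0.06 (95% interval -0.14 to 0.25).

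The auxiliary enzymes that deal with unsaturated chains did not pass either, with log2 changes of 0.03 for Decr1, the dienoyl-CoA reductase gene, -0.03 for Ech1, a dienoyl-CoA isomerase gene, and -0.01 for Eci1, an enoyl-CoA isomerase gene. Ehhadh, the peroxisomal bifunctional enzyme and a known PPAR-alpha target, was at -0.27, -0.14, 0.28, 0.00 and 0.00 in digoxin hearts and at 0.04, -0.33 and -0.40 in vehicle hearts. The groups overlapped, and the log2 change of 0.20 had an interval of -0.11 to 0.51. The mean of these 13 oxidation enzymes was -0.03 in the 5 digoxin hearts (SD 0.08), against -0.08 in the 3 vehicle hearts (SD 0.06), and this difference was smaller than either SD.

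The thioesterases and the uncoupling protein had negative log2 changes and did not pass. Acot1 and Acot2 encode the cytosolic and mitochondrial acyl-CoA thioesterases, are near-identical neighbours, and their probe sets could share signal. Acot1 stood at 0.02, -0.03, -0.07, -0.19 and 0.06 in digoxin hearts and at 0.67, -0.24 and -0.15 in vehicle hearts. Acot2 stood at 0.00, 0.12, 0.19, -0.28 and 0.00 in digoxin hearts and at 0.23, -0.17 and 0.08 in vehicle hearts. In both genes vehicle replicate 1 was the highest array.

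Ucp3, the uncoupling protein gene of muscle mitochondria and a PPAR-alpha target, had the widest range of any member, 1.09 between its extremes. Its values were -0.75, -0.65, -0.10, -0.47 and 0.00 in digoxin hearts and 0.34, -0.51 and -0.49 in vehicle hearts. Again vehicle replicate 1 was the highest. Log2 changes were -0.13 (95% interval -0.55 to 0.29) for Acot1, -0.04 (95% interval -0.30 to 0.23) for Acot2 and -0.17 (95% interval -0.71 to 0.37) for Ucp3. Without vehicle replicate 1 they were 0.16, 0.05 and 0.11, and that of Acot2 was also above 0 without digoxin replicate 4 (0.03).

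Differences between hearts of one group were shared by many members. Vehicle replicate 1 had the highest vehicle value in 19 of 29 members, and vehicle replicate 2 the lowest in 17. Among digoxin hearts the lowest value was that of replicate 4 in 17 members and that of replicate 1 in 11. Digoxin replicate 4 was the lowest digoxin heart in 9 of the 13 oxidation enzymes. Such counts over all genes are not given here, so these counts do not set the members apart from other genes. Over all probe sets the lower quartile of digoxin replicate 4 was -0.07, against -0.05 to -0.04 on the other digoxin arrays. Digoxin replicate 4 is the array that stood apart in lymphocyte and adipocyte markers. The mean of 8 mural (vessel wall) markers was 0.23 on digoxin replicates 1 and 4. It was 0.01 to 0.15 on the other digoxin arrays and 0.01 to 0.12 on the vehicle arrays. On digoxin replicate 1 Acta2, Myh11 and Tagln of this list were at 0.93, 1.09 and 1.01. The others were not high there, with Rgs5 at -0.70, Kcnj8 at -0.36, Pdgfrb at -0.13, Abcc9 at 0.01 and Notch3 at 0.03. On digoxin replicate 4 Acta2, Myh11 and Tagln were at 0.49, 0.72 and 1.00, and the others between -0.25 and 0. The part of these marker differences in the low values of replicate 1 was not tested. The median SD of a member was 0.10 in digoxin hearts and 0.13 in vehicle hearts, and over all genes it was 0.08 in digoxin hearts and 0.11 in vehicle hearts.

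Regulators of these genes were listed beside the members. Of 11 measured regulators, 1 rose and 1 fell, and of all genes tested 1.36% passed. Ppara, the gene of PPAR-alpha, was at 0.27, 0.45, 0.34, 0.31 and 0.34 in digoxin hearts and at -0.03, -0.11 and 0.01 in vehicle hearts. The groups did not overlap, and the log2 change was 0.38 (SE 0.05, 95% interval 0.27 to 0.50, adjusted p = 0.0092 in limma), or 1.30 times the vehicle level. Ppargc1b, which encodes the coactivator PGC-1 beta, fell. It was at -0.44, -0.56, -0.37, -0.59 and -0.31 in digoxin hearts and at 0.20, 0.01 and 0.00 in vehicle hearts.

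No digoxin heart reached the vehicle range of Ppargc1b. The log2 change was -0.53 (SE 0.08, 95% interval -0.71 to -0.34, adjusted p = 0.017 in limma), which put digoxin hearts at 0.695 times the vehicle level. Its adjusted p was 0.055 without vehicle replicate 1 and 0.0537 without vehicle replicate 2. Ppargc1a, the gene of PGC-1 alpha, had a log2 change of 0.36 (95% interval 0.15 to 0.56) and did not pass (adjusted p = 0.129 in limma), though its groups did not overlap, and it passed without vehicle replicate 1. Ppard and Rxra, genes of another PPAR and of the partner of PPARs, had log2 changes of 0.14 and 0.16 and did not pass. The groups overlapped in Rxra but not in Ppard. Of the 11 regulators, 3 were higher and 1 lower without overlap, against 8.16% of all genes. The lists were chosen with earlier results of these data known.

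**Figure D4:**
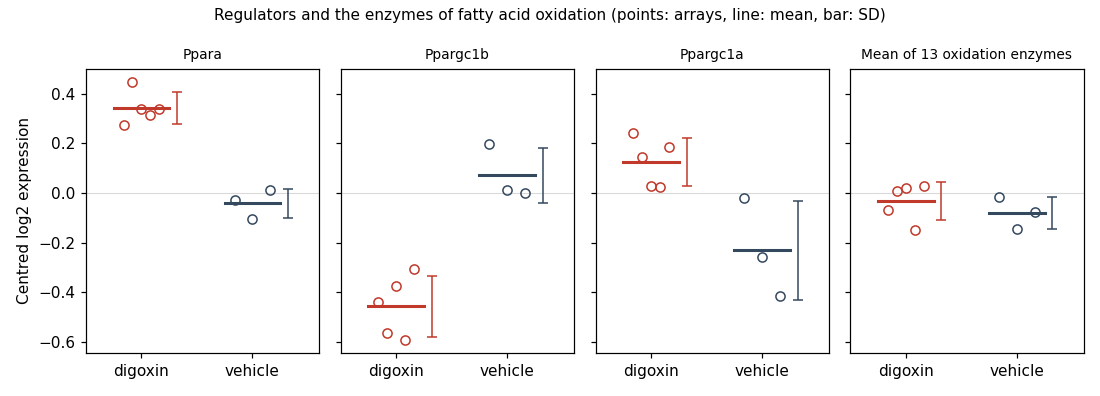
Centred log2 expression of Ppara, Ppargc1b and Ppargc1a, and the mean of 13 enzymes of fatty acid oxidation, in digoxin hearts (left in each panel, 5 arrays) and vehicle hearts (right, 3 arrays). Points are arrays, lines are means and bars are SD. Ppara lies higher and Ppargc1b lower on every digoxin array, while the enzyme mean overlaps between the groups.

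With these regulators, 88 further genes of the pathway were listed, of which 79 were measured. Ppara and Ppargc1b were the only ones of the 79 to pass in limma, and the median log2 change was 0.04. Of all genes tested, 1.36% passed. Groups did not overlap in 7 of the 79, with 5 higher and 2 lower in digoxin hearts, against 8.16% of all genes. Neither count sets the 79 genes apart. None of 14 genes of lipase control and uptake passed. In that list the smallest p values were those of Cav1, the caveolin gene, at -0.15 (adjusted p = 0.253), and Acsl6, an acyl-CoA synthetase gene, at 0.12 (0.402). None of 17 further genes of mitochondrial oxidation passed, with Acadsb, a dehydrogenase gene for branched short chains, at 0.20 (adjusted p = 0.135) and the isomerase gene Eci2 at 0.23 (0.303).

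None of 13 peroxisomal genes passed either. Abcd2, a peroxisomal transporter gene for very long chains, was at 0.33 (adjusted p = 0.144) and Hacl1, of alpha-oxidation, at 0.18 (0.354). Of 10 further thioesterases, Acot9 and Acot6 had the smallest p values, both with a log2 change of 0.16, and none passed. Among 9 other PPAR-alpha targets, Plin5, a lipid droplet protein gene of oxidative tissue, was at 0.28 (95% interval 0.02 to 0.54, adjusted p = 0.365), and Pdk4, the kinase gene that shuts off pyruvate oxidation, at 0.46 (95% interval 0.03 to 0.90, adjusted p = 0.372), and none passed.

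Pdk4 ranged from -0.12 to 0.47 in digoxin hearts and from -0.75 to 0.13 in vehicle hearts. Its log2 change was 0.23 without vehicle replicate 2. Of 5 genes of fatty acid synthesis none passed, with Acaca at 0.17 and Acly at 0.18 and adjusted p values of 0.475 and 0.671. In this list digoxin replicate 4 was high. Scd1, the stearoyl-CoA desaturase gene, was at 1.62 there, against 0.05 to 0.33 in the other digoxin hearts and -0.62 to 0.56 in vehicle hearts. Fasn, the fatty acid synthase gene, was at 1.10 there, against 0 to 0.08 in the other digoxin hearts and -0.10 to 0.22 in vehicle hearts. Scd1 and Fasn were named after their values were seen.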

How the data were processed

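Expression was measured in 5 digoxin and 3 vehicle hearts. Per the series design text, the authors normalised by Robust Multi-Average within Galaxy-based tools, the submitters' processing notes name limma, and no source used here gives versions. The deposited values are on a log2 scale, centred probe set by probe set. The centre is not stated, but cancels in differences between arrays, provided it is 1 constant per probe set. The log base is taken as that of the method.

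Probe sets with exactly 1 gene symbol in the platform annotation (23521 of 34351) were averaged per gene, giving 22180 genes. Several symbols were given to 1814 probe sets and none to 9016. For digoxin minus vehicle, limma 3.58.1 was run under R 4.3.3 (lmFit, eBayes, two-sided, Benjamini-Hochberg over all genes, threshold 0.05, no covariate). The fit was tested on simulated data. The number of arrays limits the precision. Array numbers in the labels separate the groups, so the order of arrays cannot be told apart from treatment.

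The members, the lists and the alternatives were chosen with earlier results of these data known. The genes named were all measured members, and of the further genes those that passed and the 2 of smallest p in each list. Promoters qualified for the 4 members of smallest p (Gpihbp1, Cd36, Angptl4, Lmf1) and for paralogous members. Of the paralogs, Cpt1a and Ucp3 were picked after their values were seen, and Acot1, Acot2 and Fabp3 were not printed. Other genes were named after their values were seen. Alternatives were other normalizations, probe set rules, variance models, array weights, thresholds, a replicate block, covariates and arrays left out.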

Additional observations from a re-analysis of the deposited data

Results flagged for a closer look

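Among the 29 members and 14 further genes named by rule, 5 showed a digoxin heart far from the other 4 by the gap between neighbours over the whole range, for which 0.71 is the critical value with 5 arrays. About 1 in 20 groups would pass by chance, and the 43 genes share the same arrays. Vehicle groups of 3 were not tested. Digoxin replicate 1 was far below the others in Lpl (0.746). Digoxin replicate 4 was far below the others in 3 oxidation enzymes, Acadl (0.732), Etfdh (0.836) and Decr1 (0.737), and far above them in Acly (0.72), the ATP citrate lyase gene of fatty acid synthesis. In Etfdh that heart was at -0.21, against 0.01 to 0.06 in the other digoxin hearts, and the vehicle hearts lay between -0.25 and 0.00. The lymphocyte, adipocyte and epicardial marker means of this heart, given above, were also the highest of the 8 arrays. The part of any of them in these values was not tested.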

How the results depend on the processing

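Gpihbp1 was the one member called in 20 of 22 alternatives. No member was called with a change of at least 1.5 times required (0 members, 0 further genes, 107 of all genes) or under a replicate block (0, 0 and 12). Over all genes, 302 passed as reported, 614 with array weights, 493 at a threshold of 0.10, 118 at 0.01, 500 without both digoxin replicate 4 and vehicle replicate 3, and 995 with the endothelial marker mean as a covariate, chosen after the data were seen. Leaving out 1 array gave 166 to 374 of all genes, 1 member and 1 to 3 further genes, with the lowest counts without digoxin replicates 2, 3 and 5 (170, 174 and 166) and vehicle replicate 2 (169, and 1 further gene, Ppara). Of the further genes 2 passed as reported, 1 at the threshold of 0.01 and 4 with the endothelial covariate. The cause of these moves was not tested.

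There was no sign that the replicate numbers pair the samples. Deviations of same-numbered arrays correlated at -0.20, -0.02 and 0.02, and no vehicle array correlated best with its own number. So few correlations cannot show that the samples were unpaired. Pairing by the other number in the sample descriptions was not tested. Under the block Gpihbp1 had a log2 change of 0.48 (adjusted p = 0.194 in limma), Ppara 0.39 (0.331) and Ppargc1b -0.53 (0.204).

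No member but Gpihbp1 passed in any setting, and of 547 member values 35 turned sign, none over 0.16 in size. With quantile normalization these were Hadh 0.00738, Ech1 0.0122 and Eci1 0.00549. With array weights they were Hadh 0.0544, Ech1 0.0741, Eci1 0.034 and Acot2 0.0876, and beside them Acly -0.0203. With the block they were Eci1 0.0256 and Acot2 0.0608. Without both arrays they were Fabp4 -0.0124, Hadh 0.0574, Ech1 0.0733, Eci1 0.0442 and Acot2 0.0492, and Acly -0.0923. With the atrial covariate they were Acadvl -0.0454 and Decr1 -0.0578. Leaving out 1 array gave Eci1 -0.0383 to 0.026, Hadh -0.0624 to 0.0288, Acot2 -0.14 to 0.0534, Slc27a1 -0.22 to 0.0416, Hadha -0.0599 to 0.0123, Acot1 -0.30 to 0.16, Ucp3 -0.32 to 0.11, Fabp3 -0.0308 to 0.0903, Acadvl -0.0286 to 0.0694, Etfdh -0.00395 to 0.12, Acaa2 -0.0314 to 0.14, Vldlr -0.00945 to 0.0487, Fabp4 -0.0271 to 0.0665, Acadl -0.00322 to 0.0574, Ech1 -0.10 to 0.0575 and Acly -0.025 to 0.28.

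The highest-mean probe set, the filter on dim genes and the trend option need absolute levels and were not run. What precision 3 vehicle arrays allow is shown by the intervals. Signal over background cannot be read from centred values.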

Other observations

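Phyh, which encodes the phytanoyl-CoA hydroxylase of peroxisomal alpha-oxidation, was named after its values were seen. Its values were -0.85, 0.04, 0.00, -0.09 and 0.25 in digoxin hearts and -0.01, -0.64 and -0.52 in vehicle hearts. The lowest digoxin and the lowest vehicle array were those that were lowest on the second Lpl probe set. Its log2 change was 0.26 (95% interval -0.29 to 0.81, adjusted p = 0.707 in limma).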
